A study of Homo sapiens with 30 samples.

Results

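PTBP1, PTBP2 and PTBP3 are the 3 human genes of polypyrimidine tract binding proteins, chosen by name from the 39126 genes listed for whole-cell RNA. The same 3 identifiers (ENSG00000011304.12, ENSG00000117569.14 and ENSG00000119314.11) are among the 55548 genes listed for nuclear RNA. All 3 passed the filter on low counts in both tables. Messenger RNA was sequenced from Hues6, a human embryonic stem cell line, in libraries labelled QKI knockout (KO) or wild type (WT). There were 3 libraries of each genotype at day 0 (D0, pluripotent cells), at day 4 (D4, cardiac progenitors), at day 8 (D8, cardiomyocytes) and of D8 nuclear RNA. Differentiation to D4 and D8 began with 1.25 uM of CHIR, which activates WNT signalling by inhibiting GSK3, in KO cells and 1.5 uM in WT cells, with 1.5 ng/mL BMP4 in both, followed by the WNT inhibitor C59. After D0 the genotype and the CHIR dose cannot be told apart. Separately, 293T cells, an embryonic kidney line, received an siRNA against QKI or a control siRNA, with 3 libraries each, and are seen here only through their exons. The labels do not say whether libraries came from separate cultures, so each p-value reflects only how far these libraries spread.

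PTBP proteins bind pyrimidine-rich RNA through several RNA recognition motifs and mostly repress the inclusion of nearby exons. PTBP1 is made in most cell types, PTBP2 is the form best known from neurons, and PTBP3 was first described in blood cells. PTBP1 represses an exon of PTBP2 whose loss shifts the reading frame and marks the transcript for decay, so the proteins control each other's RNA. In rodents PTBP1 declines as heart muscle matures. QKI, the gene targeted here, encodes a STAR family RNA-binding protein that also controls splicing, in muscle among other tissues.

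Each of the 3 genes has a 34-nt exon with the same effect on the reading frame, and these exons are printed because their inclusion differed between the paralogues. Where a gene had another 34-nt exon, the one with the highest mean inclusion was taken. Capitals mark the bases that are not the same in all 3 exons. The sequences are those of GENCODE 29 transcripts, and the positions are in hg19 as the authors' tables give them: chr19:807869-807902 on the plus strand for PTBP1, chr1:97271975-97272008 on the plus strand for PTBP2 and chr9:114993660-114993693 on the minus strand for PTBP3.
PTBP1 34-nt exon: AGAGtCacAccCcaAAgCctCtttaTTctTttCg
PTBP2 34-nt exon: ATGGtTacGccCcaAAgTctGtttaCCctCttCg
PTBP3 34-nt exon: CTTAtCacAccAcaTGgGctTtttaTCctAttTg
Of the 34 bases, 19 were the same in all 3 exons, and the PTBP1 and PTBP2 exons shared 25 (73.5%). Removed from an annotated coding transcript, each exon left a stop codon 361 nt before the last exon junction. That stop came after 355 residues in place of 531 for PTBP1, after 361 in place of 537 for PTBP2 and after 379 in place of 555 for PTBP3. A further exon of PTBP1, at chr19:805492-805569 in hg19, is printed because it carried the differences between arms reported below.
PTBP1 78-nt exon: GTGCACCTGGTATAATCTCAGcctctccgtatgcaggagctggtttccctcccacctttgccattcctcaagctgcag
The capitals are the 21 nt present only when the upstream of its alternative 3′ splice sites is used, and the 57 nt in lower case are the short form. This exon lies in the linker between RNA-binding domains of PTBP1, both forms are multiples of 3, and PTBP1 protein without the exon is known as a weaker repressor. Without the long form, an annotated coding transcript that holds it had 501 residues in place of 527. A different annotated coding transcript, which holds the short form, had 531 residues without it in place of 550. Because the transcripts differ, these lengths do not compare the long form with the short form.

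Total counts ran from 40001076 to 89948185 in whole-cell libraries and from 6549676 to 15030590 in nuclear ones. QKI averaged 39.4 ± 3.34 CPM (counts scaled by TMM-corrected library totals) in KO and 293 ± 7.39 in WT at D0, and 78.2 ± 10.2 in KO and 146 ± 8.87 in WT at D4 (SD, n = 3 each). At D8 it averaged 335 ± 5.30 CPM in the libraries labelled KO and 324 ± 41.9 in WT, and in nuclear RNA 505 ± 30.9 CPM in the libraries labelled KO and 160 ± 25.0 in WT. QKI RNA thus did not check the label at D8, and KO names a label in every direction given for D8 and nuclear RNA. Summed over 8 pluripotency markers, D0 libraries held 9622 CPM in KO and 7597 CPM in WT, and summed over 8 cardiac progenitor markers D4 libraries held 254 CPM in KO and 169 CPM in WT. Summed over 8 cardiomyocyte markers, D8 libraries labelled KO held 30094 CPM (26982 to 31819) and WT libraries 13529 CPM (9742 to 17089). Summed over 8 surface ectoderm and amnion markers, the libraries labelled KO held 134 CPM (121 to 152) and WT libraries 1005 CPM (727 to 1218), and over 8 proliferation markers the libraries labelled KO held 322 CPM (285 to 372) and WT libraries 685 CPM (648 to 718). The pluripotency markers summed at D8 to 590 CPM (553 to 639) in the libraries labelled KO and 1558 CPM (1349 to 1777) in WT. Of these 8 markers, edgeR called 1 higher and 6 lower. Endothelial markers summed to 665 CPM in the libraries labelled KO and 318 CPM in WT, and endoderm markers to 339 CPM and 183 CPM. The part of these cell-type differences in the D8 results, PTBP3 among them, was not tested. In bulk RNA, fewer cells of a type and less RNA per cell cannot be told apart.

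During differentiation PTBP3 fell steeply after D0 in both genotypes, and PTBP1 and PTBP2 moved by much less. Most genes differed between days. Of 21761 genes tested in edgeR, the calls covered 82.6% in KO and 81.0% in WT for D4 against D0, 75.0% in KO and 68.8% in WT for D8 against D4, and 82.9% in KO and 82.1% in WT for D8 against D0. A call for a PTBP gene between days is therefore near the background. In the authors' exon data the form that skips an exon had a length of 150 nt at D0 and 100 nt at D4 and D8. The D0 libraries may thus differ technically from the later ones. The part of this in changes against D0, or in the D4 to D0 interaction below, was not tested. In WT cells PTBP3, described in blood cells, had 453, 440 and 424 CPM at D0, 78.1, 74.6 and 73.6 at D4, and 96.5, 91.5 and 101 at D8. No D4 or D8 library came near a D0 library, and the D8 libraries all lay above the D4 ones. In edgeR's quasi-likelihood test the WT level at D4 was lower than at D0, with a log2 fold change of -2.54 ± 0.09 (SE, adjusted p = 2.17e-16), and the level at D8 was higher than at D4 by 0.35 ± 0.08 (adjusted p = 7.63e-04). Within KO cells PTBP3 had 342, 343 and 321 CPM at D0, 84.1, 68.8 and 76.8 at D4, and 76.6, 60.3 and 59.4 at D8. The KO change at D4 against D0 was -2.13 ± 0.09 (edgeR adjusted p = 1.86e-15). From D4 on, KO libraries overlapped: the D8 against D4 change was -0.23 ± 0.08 (edgeR adjusted p = 0.0183), a call lost without D4 replicate 1, D8 replicate 2 or D8 replicate 4 (adjusted p 0.112 to 0.134).

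PTBP1, the general repressor of the family, peaked at D4 in WT cells. There it had 372, 400 and 384 CPM at D0, 525, 523 and 557 at D4, and 377, 410 and 419 at D8. The 3 D4 libraries stood above all others, and D0 and D8 libraries overlapped. The WT level was higher at D4 than at D0 by 0.47 ± 0.06 (edgeR adjusted p = 6.16e-07) and lower at D8 than at D4, with a change of -0.41 ± 0.06 (edgeR adjusted p = 6.50e-06), while D8 against D0 gave 0.06 ± 0.06 (edgeR adjusted p = 0.369). In KO cells PTBP1 had 507, 503 and 574 CPM at D0, 507, 516 and 530 at D4, and 345, 325 and 315 at D8. The D0 and D4 libraries overlapped (-0.03 ± 0.06, edgeR adjusted p = 0.686), and every D8 library lay below them. The D8 against D4 change in KO was -0.66 ± 0.06 (edgeR adjusted p = 5.80e-09) and the D8 against D0 change -0.69 ± 0.06 (edgeR adjusted p = 1.70e-09).

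PTBP2, the neuron-enriched form, stayed between 50.0 and 80.7 CPM in all 18 whole-cell libraries. In WT cells it had 50.9, 50.0 and 56.0 CPM at D0, 78.5, 72.8 and 68.2 at D4, and 67.7, 60.7 and 63.4 at D8. All D4 and D8 libraries lay above the D0 ones: D4 against D0 gave 0.48 ± 0.06 (edgeR adjusted p = 5.22e-07) and D8 against D0 0.29 ± 0.06 (edgeR adjusted p = 2.87e-04). D8 against D4 in WT gave -0.20 ± 0.06 (edgeR adjusted p = 0.00947), a call lost without a filter on low counts (adjusted p = 0.0995), without D4 replicate 1 (0.0737) and without D8 replicate 3 (0.0609). In KO cells PTBP2 had 74.5, 80.7 and 80.6 CPM at D0, 73.0, 67.9 and 68.7 at D4, and 73.5, 71.9 and 72.7 at D8. The D4 libraries lay below the D0 ones by little: the change was -0.17 ± 0.06 (edgeR adjusted p = 0.0178). This call was lost without D0 replicate 2, D0 replicate 3, D4 replicate 2 or D4 replicate 3 (adjusted p 0.0544 to 0.0672). With total-count scaling the log2 fold change was 0.0446, so its sign reversed. D8 against D4 in KO gave 0.06 ± 0.06 (edgeR adjusted p = 0.423) and D8 against D0 -0.11 ± 0.06 (edgeR adjusted p = 0.102).

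The size of the PTBP3 change was less usual than its call: 23.4% of tested genes changed at least as much in KO and 14.9% in WT between D4 and D0. For PTBP1 in WT that share was 74.6%. Per kilobase of annotated exon, the WT order at D0 was PTBP1 (56.0 ± 2.06 CPM per kb), PTBP3 (53.3 ± 1.79) and PTBP2 (4.04 ± 0.247), and the first 2 overlapped between libraries. At D0 in KO cells PTBP1 (76.7 ± 5.81 CPM per kb) stood above PTBP3 (40.7 ± 1.49) and PTBP2 (6.08 ± 0.274) in every library. At D4 the order was PTBP1, PTBP3 and PTBP2 in both genotypes, with 75.2 ± 1.72, 9.30 ± 0.927 and 5.40 ± 0.214 CPM per kb in KO and 77.7 ± 2.80, 9.16 ± 0.284 and 5.66 ± 0.399 in WT. At D8 the order was the same, with 47.7 ± 2.24, 7.94 ± 1.17 and 5.62 ± 0.0651 CPM per kb in the libraries labelled KO and 58.4 ± 3.25, 11.7 ± 0.601 and 4.94 ± 0.272 in WT (SD, n = 3). These orders depend on the annotated exon lengths used, and the annotation behind the counts is not known. By mean CPM, PTBP3 (439) was above PTBP1 (385) in WT at D0. Likewise PTBP2 (72.7) was above PTBP3 (65.4) in the D8 libraries labelled KO.

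**Figure D1:**
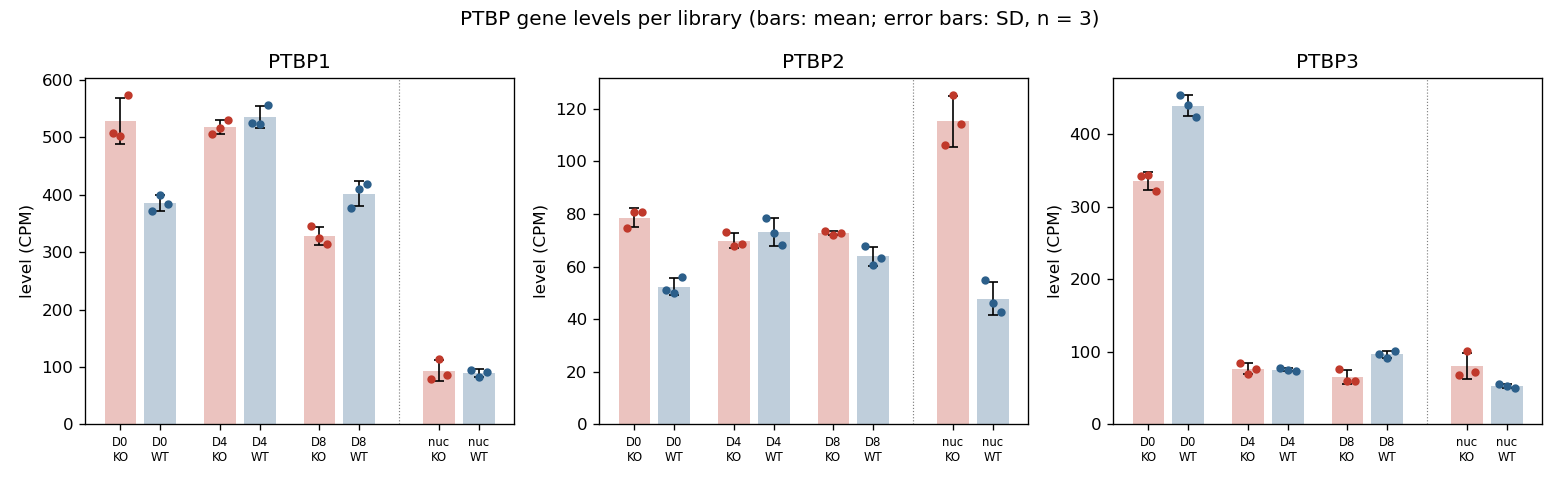
Level of each PTBP gene in CPM, by day and genotype, with nuclear RNA (nuc) right of the dotted line; points are libraries, bars are means and error bars the SD of 3 libraries. PTBP3 lies at 321 to 453 CPM at D0 and at 59.4 to 101 CPM in all D4 and D8 whole-cell libraries. Whole-cell and nuclear levels were scaled separately.

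At D0, before any CHIR was given, KO cells had more PTBP1 and PTBP2 RNA and less PTBP3 RNA than WT cells. PTBP1 had 507, 503 and 574 CPM in KO, against 372, 400 and 384 CPM in WT. PTBP2 had 74.5, 80.7 and 80.6 CPM in KO, against 50.9, 50.0 and 56.0 CPM in WT. PTBP3 had 342, 343 and 321 CPM in KO, against 453, 440 and 424 CPM in WT. None of the 3 genes had overlapping groups. The share of all tested genes without overlap was not counted, here or in the comparisons below, so non-overlap is not read as further support. PTBP1 rose by 0.45 ± 0.06 on the log2 scale, or 37.0% (SE, edgeR adjusted p = 7.21e-06). PTBP2 rose by 0.59 ± 0.06, or 50.3% (edgeR adjusted p = 3.24e-07), and PTBP3 fell by 0.39 ± 0.08, a change of -23.6% (edgeR adjusted p = 6.43e-04). All 3 genes were called in a comparison that called 42.3% of the genes tested, and 27.9% to 42.9% of tested genes changed at least as much as each of them. Neural markers, which mark the tissue where PTBP2 is best known, summed to 71.5 CPM (68.4 to 76.5) in KO and 86.9 CPM (83.0 to 90.8) in WT at D0.

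At D4 no PTBP gene was called, where 28.4% of tested genes were. PTBP1 had 507, 516 and 530 CPM in KO, against 525, 523 and 557 CPM in WT, and the log2 fold change was -0.05 ± 0.06 (edgeR adjusted p = 0.634). PTBP2 had 73.0, 67.9 and 68.7 CPM in KO, against 78.5, 72.8 and 68.2 CPM in WT (-0.07 ± 0.06, edgeR adjusted p = 0.478). PTBP3 had 84.1, 68.8 and 76.8 CPM in KO, against 78.1, 74.6 and 73.6 CPM in WT (0.02 ± 0.08, edgeR adjusted p = 0.881). The genotypes overlapped for all 3 genes. Whether the KO effect itself differed between the days was tested as an interaction. The KO effect at D4 minus that at D0 was -0.50 ± 0.09 for PTBP1 (edgeR adjusted p = 1.41e-04), -0.66 ± 0.09 for PTBP2 (edgeR adjusted p = 7.91e-06) and 0.41 ± 0.12 for PTBP3 (edgeR adjusted p = 0.00812). That interaction was called for 39.1% of tested genes.

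At D8 the libraries labelled KO had less PTBP3 and PTBP1 RNA than WT, and slightly more PTBP2 RNA. PTBP1 had 345, 325 and 315 CPM in KO, against 377, 410 and 419 CPM in WT. PTBP2 had 73.5, 71.9 and 72.7 CPM in KO, against 67.7, 60.7 and 63.4 CPM in WT. PTBP3 had 76.6, 60.3 and 59.4 CPM in KO, against 96.5, 91.5 and 101 CPM in WT. The groups did not overlap for any of the 3, in a comparison that called 55.6% of tested genes. At least as large a change was seen in 37.1% of tested genes for PTBP3, 59.8% for PTBP1 and 72.4% for PTBP2. PTBP1 fell by 0.29 ± 0.06, a change of -18.4% (edgeR adjusted p = 4.95e-04), and PTBP3 fell by 0.56 ± 0.08, a change of -32.2% (edgeR adjusted p = 8.32e-06). PTBP2 rose by 0.19 ± 0.06, or 13.7% (edgeR adjusted p = 0.0164). The PTBP2 call was lost without a filter on low counts (adjusted p = 0.0658), with only the D8 libraries in the fit (0.0710), with total-count scaling (0.0534 on the log2 scale, 0.487) and without WT replicate 3 (0.0848). Neural markers summed to 133 CPM (124 to 140) in KO and 66.1 CPM (58.7 to 75.3) in WT at D8, of which the adhesion molecule NCAM1 made 108 CPM in KO and 39.1 CPM in WT. Of 12 neural markers 9 were tested at D8, of which edgeR called 2 higher and 3 lower in KO. ELAVL3, a neuronal RNA-binding protein of that list, was at 0.035 CPM in KO and 0.017 CPM in WT; the part of neural or other cells in the PTBP2 difference was not tested.

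The KO effect at D8 differed from that at D4 by -0.58 ± 0.12 for PTBP3 (edgeR adjusted p = 4.82e-04), by -0.25 ± 0.09 for PTBP1 (edgeR adjusted p = 0.0312) and by 0.25 ± 0.09 for PTBP2 (edgeR adjusted p = 0.0282), where 41.5% of tested genes were called. The PTBP3 call held under every alternative run. The PTBP1 call was lost with DESeq2 size factors (adjusted p = 0.0692) and without any 1 of 8 libraries (WT D4 1 and 2, KO D4 2 and 3, WT D8 3 and 4, KO D8 2 and 4; adjusted p 0.0523 to 0.0849). The PTBP2 call was lost without a filter on low counts (0.105), with total-count scaling (0.723) and without any 1 of 5 libraries (WT D4 1, KO D4 2 and 3, WT D8 3 and 4; 0.0538 to 0.0848).

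**Figure D2:**
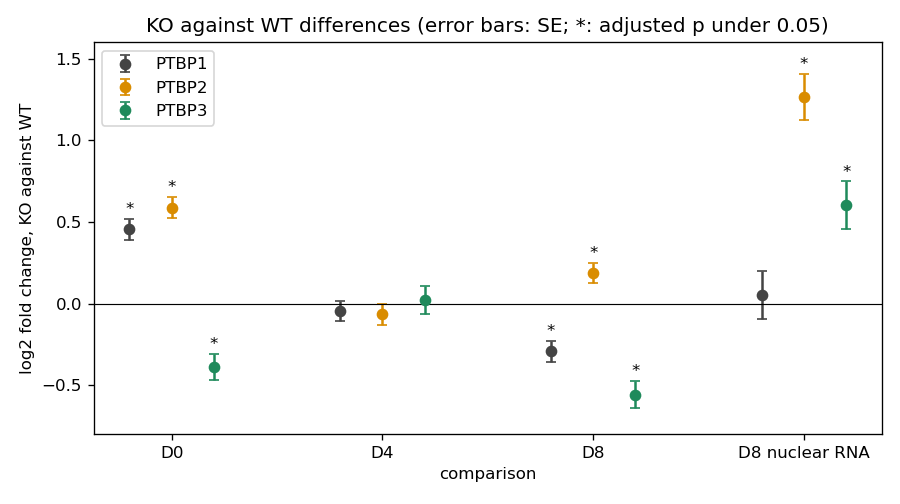
Log2 fold change of each PTBP gene, KO against WT, in 4 comparisons on the x axis; error bars are the SE and asterisks mark an edgeR adjusted p under 0.05. At D0 PTBP1 (0.45) and PTBP2 (0.59) lie above 0 and PTBP3 (-0.39) below it, at D4 all lie within 0.07 of 0, and at D8 PTBP3 is lower in whole-cell RNA (-0.56) and higher in nuclear RNA (0.60).

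In nuclear RNA at D8, PTBP2 and PTBP3 were higher in the libraries labelled KO, and PTBP1 did not pass the test. PTBP2 had 106, 125 and 114 CPM in KO, against 54.9, 46.1 and 42.7 CPM in WT, with a log2 fold change of 1.27 ± 0.14 (edgeR adjusted p = 6.04e-09). PTBP3 had 68.7, 101 and 71.8 CPM in KO, against 55.5, 53.0 and 50.7 CPM in WT, with a change of 0.60 ± 0.14 (edgeR adjusted p = 7.51e-04). PTBP1 had 79.5, 114 and 86.1 CPM in KO, against 95.4, 82.6 and 91.8 CPM in WT, a change of 0.05 ± 0.14 (edgeR adjusted p = 0.755). The groups overlapped for PTBP1 alone, and 64.0% of the 30481 genes tested were called. Of those genes, 9.87% changed at least as much as PTBP2 and 61.5% at least as much as PTBP3. The median over all those genes was -0.27, so PTBP1 lay 0.32 above it, PTBP3 0.87 and PTBP2 1.54. Scaling by total counts moved the median of all genes by -0.45, which made PTBP1 -0.41 (called, edgeR adjusted p = 0.00116) and PTBP3 0.14 (not called, edgeR adjusted p = 0.249). Relative to that median they lay at 0.31 and 0.86. A scaling moves all genes by about the same amount, so these relative values cannot show which scaling holds. The nuclear PTBP1 and PTBP3 results thus depend on the scaling. PTBP2 was called under each scaling. Per kilobase the nuclear order was PTBP1 (13.5 ± 2.65 CPM per kb), PTBP3 (9.78 ± 2.17) and PTBP2 (8.91 ± 0.742) in the libraries labelled KO, where neighbours overlapped, and PTBP1 (13.1 ± 0.961), PTBP3 (6.44 ± 0.294) and PTBP2 (3.70 ± 0.487) in WT, where they did not. By CPM, PTBP2 (115 ± 9.60) was above PTBP1 (93.2 ± 18.2) in the libraries labelled KO, so that order depends on the exon lengths used. Neural markers summed to 337 CPM (316 to 357) in KO and 143 CPM (142 to 143) in WT nuclear RNA, of which NCAM1 made 252 CPM in KO and 62.6 CPM in WT. By edgeR, 3 of the 11 neural markers tested were higher in KO and 6 lower, with a median log2 fold change of -0.64, so most moved against the sum. The cardiomyocyte markers summed to 16088 CPM in KO and 4492 CPM in WT nuclear RNA, and 6 endothelial markers to 465 CPM in KO and 68.0 CPM in WT, though 1 was called higher and 4 lower of the 5 tested. The surface ectoderm and amnion markers summed to 259 CPM in KO and 632 CPM in WT nuclear RNA, and the proliferation markers to 104 CPM in KO and 246 CPM in WT. The part of these differences in the nuclear results was not tested.

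A ratio of PTBP genes within a library does not depend on the scaling, though it does depend on their lengths, so it is compared only between groups. PTBP2 as a share of PTBP1 CPM was 14.9% ± 1.03 in KO and 13.6% ± 1.03 in WT at D0 (SD, n = 3 each). At D4 it was 13.5% ± 0.794 in KO and 13.7% ± 1.37 in WT, and at D8 22.2% ± 0.898 in KO and 16.0% ± 1.74 in WT. The D8 ranges, 21.3% to 23.1% in KO and 14.8% to 18% in WT, did not overlap, while those at D0 and D4 did. In nuclear RNA the share was 125% ± 13.3 in KO and 53.3% ± 5.95 in WT. PTBP3 as a share of PTBP1 CPM was 63.9% ± 6.87 in KO and 114% ± 6.79 in WT at D0. At D4 it was 14.8% ± 1.66 in KO and 14.1% ± 0.845 in WT, and at D8 19.9% ± 2.0 in KO and 24.0% ± 1.66 in WT. In nuclear RNA it was 86.2% ± 2.71 (83.4% to 88.8%) in KO and 59.2% ± 4.55 (55.2% to 64.2%) in WT, with no overlap and in the opposite direction to whole-cell RNA at D8. The D0 drop in the PTBP3 share joins the rise of PTBP1 and the fall of PTBP3, and at D8 the KO range (18.6% to 22.2%) lay just below the WT range (22.3% to 25.6%).

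**Figure D3:**
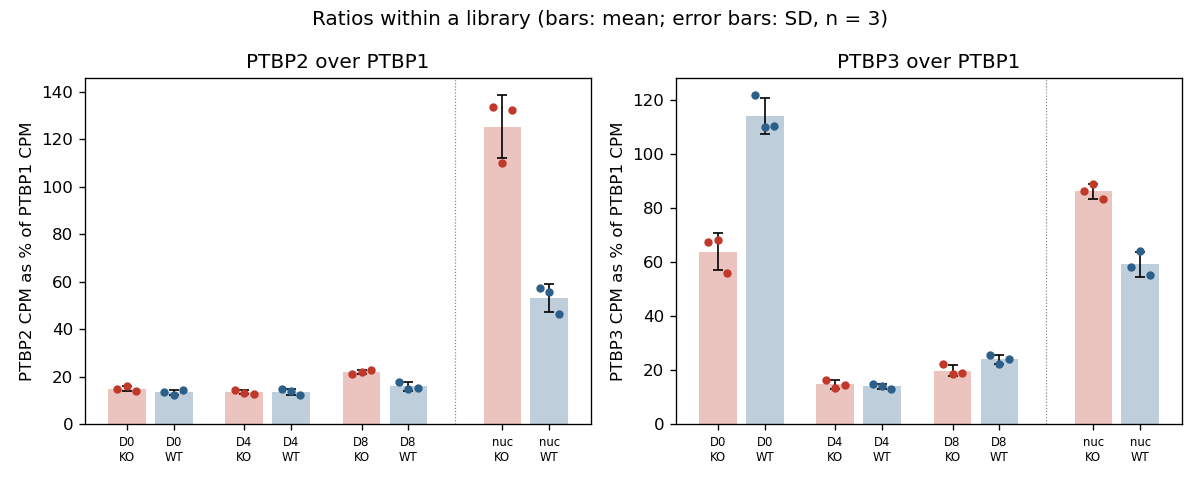
PTBP2 (left) and PTBP3 (right) CPM as a percentage of PTBP1 CPM within each library, with nuclear RNA (nuc) right of the dotted line; bars are means and error bars the SD of 3 libraries. The PTBP3 share is 63.9% in KO and 114% in WT at D0 and at most 25.6% in whole-cell libraries of D4 and D8.

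The authors' skipped-exon tables for D0, D4, D8 and 293T hold 2 unnamed arms of 3 libraries, called first and second here in the order of the columns. QKI's own junction reads, scaled to all junction reads a library has in the table, in the second arm amounted to 6.78% (D0), 33.8% (D4), 80.2% (D8) and 19.7% (293T) of those in the first arm. An event compares 2 forms, 1 with the exon and 1 that skips it. Inclusion, from 0 to 1, is the share of the form with the exon among these, corrected for the length of both forms. Transcripts with another form of the exon are left out. A call needed the authors' FDR under 0.05, an inclusion difference of 0.1 or more and, in each arm, 10 or more junction reads per library on average. The 3 genes had 53 distinct events (17 of PTBP1, 14 of PTBP2 and 22 of PTBP3) in 111 entries, of which 105 had enough reads. In 77 of these the exon was at 0.95 or more in both arms, and in 3 at 0.05 or less, so most PTBP exons were included nearly always. The calls were 1 of 35 entries at D0, 1 of 20 at D4, 2 of 31 at D8 and 0 of 19 in 293T, beside 2.37%, 1.1%, 2.23% and 0.451% of all events with enough reads.

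All 3 PTBP1 calls were the same event, inclusion of the 57-nt short form of the linker exon printed above against its skipping, and the second arm was higher each time. At D0 its inclusion in the authors' deposited table was 0.578, 0.537 and 0.567 in second-arm libraries, against 0.354, 0.365 and 0.42 in first-arm libraries, a difference of 0.181 (FDR 5.57e-04). The authors' deposited table for D4 put it at 0.586, 0.556 and 0.607 in second-arm libraries, against 0.464, 0.441 and 0.449 in first-arm libraries, a difference of 0.132 (FDR 0.00101). Inclusion at D8 was, in the authors' deposited table, 0.641, 0.668 and 0.648 in second-arm libraries, against 0.535, 0.484 and 0.461 in first-arm libraries, a difference of 0.159 (FDR 2.55e-07). The arms did not overlap on any of the 3 days. For 293T inclusion in the authors' deposited table was 0.838, 0.848 and 0.886 in second-arm libraries, against 0.824, 0.782 and 0.816 in first-arm libraries, which was not called (0.05, FDR 0.578). The level in 293T was thus above every Hues6 library in both arms.

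The 78-nt long form of the same exon was included at higher levels and shares its skipping reads with the short form, so the events of both forms are not independent. In second-arm library 1 at D0 there were 1375 inclusion reads of the long form, 142 of the short form and 75 skipping reads. Each inclusion level sets 1 form against skipping, so neither is a share of all PTBP1 transcripts. The authors' deposited table for D4 put its inclusion at 0.894, 0.87 and 0.879 in second-arm libraries, against 0.831, 0.823 and 0.793 in first-arm libraries, a difference of 0.065 (FDR 3.79e-04) that is under the size asked for. Inclusion at D8 was, in the authors' deposited table, 0.894, 0.891 and 0.881 in second-arm libraries, against 0.869, 0.818 and 0.831 in first-arm libraries (0.049, FDR 0.00248). At D0 inclusion in the authors' deposited table was 0.923, 0.907 and 0.882 in second-arm libraries, against 0.935, 0.918 and 0.9 in first-arm libraries (-0.014, FDR 0.878), and the arms overlapped. Between D0 and D4 the first arm fell by 0.102 in inclusion of the long form in the authors' deposited tables, and between D0 and D8 it gained 0.114 of the short form; these day differences have no test.

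The PTBP2 34-nt exon, whose loss shifts the frame, was called at D8 and varied most between days among the 23 PTBP events listed on more than 1 day. The authors' deposited table for D0 put its inclusion at 0.87, 0.915 and 0.852 in second-arm libraries, against 0.859, 0.843 and 0.81 in first-arm libraries (0.042, FDR 0.689). Inclusion at D4 was, in the authors' deposited table, 0.541, 0.5 and 0.497 in second-arm libraries, against 0.486, 0.424 and 0.46 in first-arm libraries (0.056, FDR 1). Both arms were lower at D4 than at D0, with changes of -0.366 in the second and -0.381 in the first, with no overlap of the days, a description across separate tables. At D8 inclusion in the authors' deposited table was 0.907, 0.882 and 0.923 in second-arm libraries, against 0.805, 0.777 and 0.737 in first-arm libraries, a difference of 0.131 (FDR 1.03e-08), and the arms did not overlap. The authors' deposited table for 293T put the exon at 0.279, 0.434 and 0.404 in second-arm libraries, against 0.36, 0.24 and 0.521 in first-arm libraries (-0.001, FDR 1), on a mean of 32.3 second-arm and 20.3 first-arm reads per library.

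The 34-nt exons printed above for the paralogues were nearly always included. For PTBP3 this was built into the choice, which took the 34-nt exon with the highest mean inclusion. Its other 34-nt exon, at chr9:115092721-115092754 in hg19, had low inclusion. In the authors' deposited tables its mean ran from 0.00433 (second arm, D4) to 0.0993 (second arm, D8) in the event with the most reads. The authors' deposited table for D4 put the PTBP1 exon, which PTBP1 itself is known to repress, at 0.985, 0.974 and 0.987 in second-arm libraries, against 0.985, 0.987 and 0.99 in first-arm libraries. Its mean was at least 0.982 in both arms of all 4 of the authors' deposited tables, measured from the neighbouring upstream exon. The PTBP3 exon was listed at D8 alone in the authors' deposited tables, at 1 in all 3 second-arm libraries and at 1, 0.995 and 1 in the first arm. Of the 3 printed exons, which share 19 bases and the same frame effect, the PTBP2 one was thus the only one with mean inclusion under 0.95 in the tables where it was measured. The choice by inclusion limits what this says of PTBP3.

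PTBP3 had no called exon. Its largest difference, -0.207 at D0 in the authors' deposited table (FDR 0.462), was in an event with a mean of 11.0 second-arm and 16.3 first-arm reads per library. The one whose inclusion changed by at least 0.1 between days was a 170-nt exon at chr9:115038124-115038293 in hg19 (minus strand). Removing it from an annotated transcript that holds it left a stop after 49 residues in place of 555. This exon is also absent from 1 protein-coding transcript of GENCODE 29, which has 457 residues. At D4 its inclusion in the authors' deposited table was 0.703, 0.756 and 0.703 in second-arm libraries, against 0.823, 0.854 and 0.818 in first-arm libraries, a difference of -0.111 that did not pass (FDR 0.306). The authors' deposited table for D0 put it at 0.8, 0.796 and 0.812 in second-arm libraries, against 0.838, 0.852 and 0.856 in first-arm libraries (-0.046, FDR 0.103), and the arms did not overlap on either day. Inclusion at D8 was, in the authors' deposited table, 0.742, 0.812 and 0.587 in second-arm libraries, against 0.822, 0.679 and 0.719 in first-arm libraries (-0.026, FDR 1), where they did. For 293T inclusion in the authors' deposited table was 1, 0.778 and 0.667 in second-arm libraries, against 0.818, 0.826 and 0.846 in first-arm libraries (-0.015, FDR 1), on a mean of 12.7 second-arm and 14.3 first-arm reads per library. Another event of this exon, with a shorter neighbouring exon, was lower at D8 than at D0 by 0.147 in the second arm of the authors' deposited tables.

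**Figure D4:**
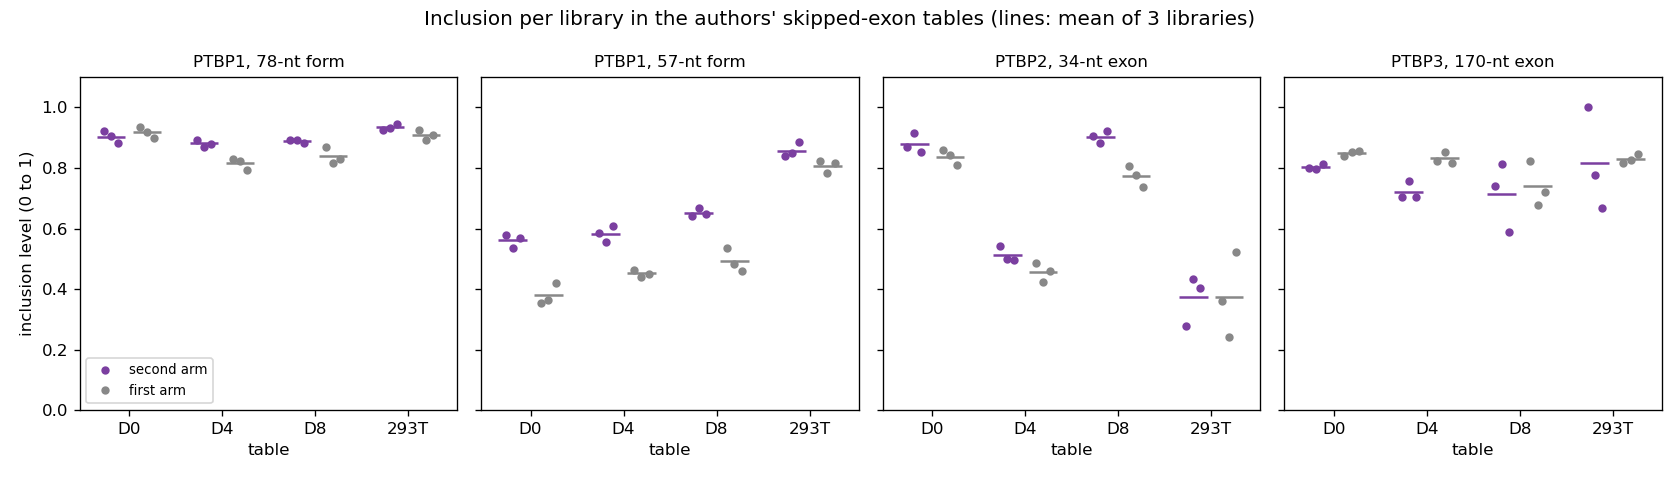
Inclusion level (0 to 1) of 4 events per library in the authors' tables for D0, D4, D8 and 293T; points are libraries of the second arm (left of each pair) and the first arm, and lines are means of 3. The short form of the PTBP1 exon is higher in the second arm on each day (differences 0.181, 0.132 and 0.159), and the PTBP2 exon is lower at D4 than at D0 and D8 in both arms.

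These calls rest on the authors' test. With limma on the logit of inclusion over all events, the adjusted p of the PTBP1 short form was 0.102 at D0, 0.131 at D4 and 0.112 at D8, and that of the PTBP2 exon at D8 was 0.171, so none of the 4 was called. The form lengths behind inclusion were the same at D4 and D8 for the events described and differed from those at D0 and in 293T, and each arm shares its libraries between all events of a table. Reads were also spread otherwise along PTBP1. In the second arm the 76-nt exon at chr19:803561-803636 had a mean of 15211 reads per library and the 78-nt exon 1522 at D0. At D8 these means were 2654 and 1951.

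Of 8 known partners of PTBP proteins, the test in edgeR placed 4 higher and 1 lower in KO at D0, 0 higher and 4 lower at D4, 2 higher and 1 lower at D8, and 8 higher and 0 lower in nuclear RNA. Over all genes tested, D0 had 42.3% called, D4 28.4%, D8 55.6% and the nuclear comparison 64.0%. In the same order the median log2 fold changes of the list were 0.14, -0.18, 0.04 and 0.88, beside -0.012, -0.0039, 0.0063 and -0.27 over all genes tested. Total-count scaling moved the all-gene median by 0.0734 at D4, by -0.13 at D8 and by -0.45 for nuclear RNA, which is of the size of several changes in these lists. RAVER1, a co-repressor that binds PTBP1, averaged 55.5 ± 2.89 CPM in KO and 40.8 ± 4.94 in WT at D0 (0.44 ± 0.07, edgeR adjusted p = 5.69e-05), fell at D4 (-0.31 ± 0.07, edgeR adjusted p = 0.00304) and rose at D8 (0.36 ± 0.07, edgeR adjusted p = 2.50e-04). RAVER2, its paralogue, was called at D4 (-0.20 ± 0.06, edgeR adjusted p = 0.0166) and gave -0.05 at D0 and 0.02 at D8. MATR3, a nuclear matrix protein that binds PTBP1, gave -0.01 at D0 and was called at D4 (-0.18 ± 0.07, edgeR adjusted p = 0.0474) and at D8 (0.19 ± 0.07, edgeR adjusted p = 0.0206). HNRNPL, of the related hnRNP L branch, was higher in KO at D0 (0.23 ± 0.06, edgeR adjusted p = 0.00247) and gave -0.12 at D4 and 0.06 at D8. Its paralogue HNRNPLL, not among the 8, gave 0.09 at D0, was called at D4 (-0.18 ± 0.06, edgeR adjusted p = 0.0465) and gave 0.15 at D8. In nuclear RNA all 5 were higher in the libraries labelled KO, by 0.64 (RAVER1), 1.08 (RAVER2), 1.21 (MATR3), 0.67 (HNRNPL) and 1.05 (HNRNPLL).

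Among 15 genes with exons that textbooks place under PTBP control, edgeR called 10 higher and 3 lower in KO at D0, 3 higher and 2 lower at D4, 5 higher and 5 lower at D8, and 11 higher and 0 lower in nuclear RNA. Beside the shares called over all genes (42.3%, 28.4%, 55.6% and 64.0%), the total counts at D4, at D8 and for nuclear RNA were near the background. The D0 count was above it, which was not tested. By direction the nuclear calls were all higher, while all genes split into 9508 higher and 10007 lower. The list medians were 0.36, -0.0064, -0.11 and 0.59 in the same order. Among the largest called changes at D0 were those of the cardiac troponin TNNT2 (1.08) and the tropomyosin TPM1 (0.98). At D4 they included the calcium channel subunit CACNA1C (0.57) and the tropomyosin TPM2 (-0.43), and at D8 TNNT2 (1.41) and CACNA1C (1.28). TNNT2 is also on the cardiomyocyte list, which moved with genotype at D8. In nuclear RNA the 3 largest were CACNA1C (2.28), TNNT2 (2.03) and the pyruvate kinase PKM (1.35). Of the exon events of these 15 genes with enough reads, the share called was 7.3% for D0, 11.0% for D4, 13.8% for D8 and 1.64% for 293T by the authors' FDR and the size rule, beside 2.37%, 1.1%, 2.23% and 0.451% of all events. By direction in the authors' deposited tables, 4 were higher and 6 lower in the second arm at D0, 8 and 4 at D4, 14 and 12 at D8, and 1 and 0 in 293T. Both directions were present on each day, and TPM1 alone had 4 higher and 5 lower at D8 in the authors' deposited table. Which of these events PTBP proteins control was not tested, and events of 1 gene share reads.

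Across the 18 whole-cell libraries the members did not follow each other closely: Pearson's r of log2 CPM was 0.398 for PTBP1 with PTBP2, 0.0551 for PTBP1 with PTBP3 and -0.408 for PTBP2 with PTBP3. The libraries fall into 6 groups, so these values describe mostly the group means and carry no test. Among 12171 genes with a mean of at least 5 CPM, those most like PTBP1 were UHRF1 (r = 0.963), CARD10 (0.955) and MAP1B (0.951). Those most like PTBP2 were FRAT2 (0.914), SAFB2 (0.913) and NOC4L (0.903), and those most like PTBP3 were NLK (0.997), PPP2R5E (0.995) and UBXN7 (0.995).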

How the data were processed

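Whole-cell and nuclear RNA were deposited by the authors as gene counts, per the labels from poly(A) RNA and stranded libraries. The submitters' processing notes name hg19, UMI-tools, cutadapt, STAR, featureCounts and DESeq, with no order; the strand setting and the annotation release were not given in the sources used here. Reads of close paralogues may be shared. Skipped-exon inclusion, junction counts, p-values and FDR were taken as other values from the authors' deposited tables, per the file headers in rMATS form, with no arm named.

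Counts were tested with edgeR 4.0.16 in R 4.3.3: a filter on low counts (filterByExpr), TMM scaling, 1 mean per group, the quasi-likelihood test and Benjamini-Hochberg adjustment over all genes, called at an adjusted p under 0.05. The 18 whole-cell libraries shared a fit of 21761 genes (biological coefficient of variation, 8.23%); the fit of the 6 nuclear ones held 30481 genes (11.9%). CPM used TMM-scaled totals, and the SE came from the fold change and its F value. The inclusion differences, a score from -1 to 1 in the authors' deposited tables, first minus second arm, were turned to second minus first. Total counts of 6549676 to 89948185 set the precision. Exon sequences came from GENCODE 29 transcripts, matched by exon and flanking intron lengths, and CPM per kb used union exon lengths of 6883, 12937 and 8239 nt for PTBP1, PTBP2 and PTBP3. Alternatives were total-count scaling, DESeq2 1.42.0 size factors and its Wald test, no filter, smaller fits, a replicate block, leaving out each library, and limma 3.58.1 on the logit of inclusion (bounded at 0.01). The scripts were tested on simulated data. The genes named are the members, 5 partners, the 3 genes with the largest called change of the exon list (1 is not reported here) and the 3 most like each member. The members and lists were chosen with earlier results of these data known.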

Additional observations from a re-analysis of the deposited data

Results flagged for a closer look

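For each of the 3 genes, the KO effect differed between days by edgeR's interaction test. The effect at D4 minus that at D0 was -0.50 for PTBP1, -0.66 for PTBP2 and 0.41 for PTBP3 on the log2 scale (adjusted p = 1.41e-04, 7.91e-06 and 0.00812), and these calls held under every alternative run. The effect at D8 minus that at D4 was -0.25 for PTBP1, 0.25 for PTBP2 and -0.58 for PTBP3 (edgeR adjusted p = 0.0312, 0.0282 and 0.000482), of which the PTBP3 call alone held under every alternative run. The CHIR dose differed between genotypes after D0, so its part and that of the genotype cannot be told apart.

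PTBP3 was lower in the whole-cell libraries labelled KO at D8 (-0.56) and higher in the nuclear ones (0.60), with no overlap of the groups in either. These comparisons called 55.6% and 64.0% of tested genes, and 37.1% and 61.5% changed at least as much as PTBP3. How many genes went in opposite directions, or had no overlap, was not counted. The difference between the 2 kinds of RNA was not tested, because the tables were scaled separately, and with total-count scaling the nuclear value was 0.14. As a share of PTBP1 CPM, which does not depend on the scaling, PTBP3 was 19.9% in KO and 24.0% in WT whole-cell RNA at D8, and 86.2% in KO and 59.2% in WT nuclear RNA.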

How the results depend on the processing

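Of 441 recomputed values of the 3 genes, 393 kept their direction and their side of the threshold, 33 lost their call, 3 gained one and 12 changed sign. With total-count scaling, KO against WT gave 0.0278 for PTBP1 and 0.0096 for PTBP2 at D4, 0.0534 for PTBP2 at D8, and -0.41 for PTBP1 and 0.14 for PTBP3 in nuclear RNA. It also gave 0.19 for PTBP1 and 0.0446 for PTBP2 in KO D4 against D0, -0.11 for PTBP2 in KO D8 against D4, 0.23 for PTBP1 in WT D8 against D0 (now called) and 0.0438 for the PTBP2 interaction of D8 with D4. With DESeq2 size factors PTBP3 at D4 was -0.0032, as with its Wald test, PTBP2 in KO D8 against D0 was called at -0.17 with both, and the PTBP1 interaction of D8 with D4 was -0.21. Without a filter PTBP2 gave 0.17 at D8, -0.15 in WT D8 against D4 and 0.23 for the D8 to D4 interaction, and with only the D8 groups 0.14. The cause of these changes was not tested. A scaling moves the values of all genes by about the same amount, so values relative to the all-gene median hardly change with it. Such values cannot show which scaling holds. Total counts also moved the share of calls that were higher, to 73.8% at D4 (57.6% with TMM), 37.6% at D8 (52.9%), 25.6% in nuclear RNA (48.7%), and 62.9% (51.1%) and 24.9% (47.2%) in the interactions.

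Whether replicate numbers pair the samples was not settled. Of 25 same-numbered pairs, 7 correlated above 0.1 (range -0.22 to 0.34) and 11 correlated best with their own number. With the replicate block PTBP2 at D8 was 0.14 (edgeR adjusted p = 0.114) and its D8 to D4 interaction 0.21 (0.0908), both not called; the block changed no other call of the 3 genes, and it called 11136 genes at D8 in place of 12097.

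Leaving out 1 library, KO against WT ranged from -0.0505 to 0.0940 for PTBP3 at D4, 0.15 to 0.23 for PTBP2 at D8 and -0.12 to 0.25 for PTBP1 in nuclear RNA. Between days it ranged from -0.0674 to 0.0316 for PTBP1 and -0.21 to -0.15 for PTBP2 in KO D4 against D0, -0.35 to -0.15 for PTBP3 in KO D8 against D4 and -0.24 to -0.14 for PTBP2 in WT D8 against D4. The D8 to D4 interactions ranged from -0.29 to -0.21 for PTBP1 and 0.20 to 0.30 for PTBP2.

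Called skipped exons numbered 1867 (D0), 647 (D4), 1768 (D8) and 203 (293T). With limma they numbered 213, 74, 390 and 50, over events at 0.05 to 0.95 (an alternative chosen after seeing the data) 251, 161, 707 and 49, and leaving out 1 library 120 to 160, 81 to 130, 200 to 251 and 63 to 87. A difference of at least 0.05 gave 3051 at D0 and added the PTBP1 long form at D4 (0.065). The PTBP1 short form (0.181, 0.132 and 0.159) and the PTBP2 exon at D8 (0.131) lost their calls with limma, over all events and over the chosen ones (adjusted p 0.153, 0.520, 0.169 and 0.0800). Without 1 library these ranged from 0.168 to 0.201, 0.120 to 0.145, 0.143 to 0.180 and 0.113 to 0.147. In 293T the PTBP2 exon ranged from -0.0682 to 0.0723, and the PTBP3 170-nt exon from -0.108 to 0.059 and, with the shorter neighbour, from -0.056 to 0.175; that event ranged from -0.0028 to 0.0147 at D0, and the other from -0.0755 to 0.037 at D8. In 293T few reads limit these exons.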
